A study of Caenorhabditis elegans with 2 samples.

Results

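Molecular chaperones are the proteins that fold other proteins, hold them in a soluble state and take apart aggregates and complexes. The chaperone genes described here are the protein-coding genes of Caenorhabditis elegans whose names begin with dnj-, hsp-, cct- or pfd-, together with cdc-48.1 and cdc-48.2. This rule on names gave 67 of the 19973 protein-coding genes, and 25 of the 67 had a peak of the transcription factor GRH-1 at their promoter. A promoter peak was one whose summit, the base of highest signal in the peak, lay between 1000 bp upstream and 200 bp downstream of the 5′ end of one of the gene's transcripts. The rule uses gene names and no measured value, but this set of genes was chosen with earlier results of these data known.

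The peaks came from chromatin immunoprecipitation followed by sequencing (ChIP-seq), in which DNA bound by a protein is recovered with an antibody and read. All animals were of strain RW12208. Its allele st12208, written grh-1::TY1::EGFP::3xFLAG, is a CRISPR insertion on chromosome I that fuses TY1, EGFP and 3xFLAG tags to grh-1 at its own locus. Per the description in the labels the antibody recognised GFP, although their antibody entry reads grh-1, and the material was whole L1 larvae of 6 h, starved after bleaching, in 2 biological replicates of 1 group. With 1 group and 1 strain there was no contrast between conditions, so the values below describe where peaks lay and how high they were. In whole animals a peak does not show in which cells the protein was bound, and a peak shows neither that a gene was expressed nor that it depended on GRH-1.

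GRH-1 belongs to the Grainyhead family of transcription factors, known in many animals for its role in the epidermis and other epithelia. Chaperones work in relays. HSP70 proteins bind exposed stretches of unfolded chains, J-domain proteins bring them clients and start their ATP hydrolysis, and HSP110 proteins release the spent nucleotide. HSP90 acts later on a set of clients that includes kinases and receptors. Prefoldin passes newly made actin and tubulin to the ring-shaped chaperonin TRiC, also called CCT, which encloses them. Small heat shock proteins hold unfolding proteins without using ATP, and CDC-48 is an AAA ATPase that pulls ubiquitin-tagged proteins out of complexes and membranes.

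GRH-1 summits lay at the promoters of 25 of the 67 chaperone genes, or 37.3% (95% Wilson interval 26.7 to 49.3%), against 8.16% of all protein-coding genes (1629 of 19973). The large heat shock proteins had the highest share, with 6 of 9 genes (66.7%, 35.4 to 87.9%). Prefoldin followed with 3 of 6 (50%, 18.8 to 81.2%), then the J-domain proteins with 11 of 29 (37.9%, 22.7 to 56.0%) and TRiC/CCT with 3 of 8 (37.5%, 13.7 to 69.4%). Of the CDC-48 genes 1 of 2 had a summit. The small heat shock proteins had 1 of 13 (7.69%, 1.37 to 33.3%), close to the share of all genes. The intervals cover counting error over genes only. Those of the large and the small heat shock proteins do not overlap, and every other pair of classes does, so the order of the other classes is not resolved. The small heat shock proteins include near-identical copies of hsp-16.1 and hsp-16.48, counted as having no summit, at which the absence of a peak is uncertain. Whether the intervals of the large and small classes stay apart without these copies was not tested. In either single replicate's list the J-domain count was 7 of 29 (24.1%), and that of the small heat shock proteins was 0 of 13. The share of all genes was 6.64% in replicate 1's list and 5.53% in replicate 2's. Neighbouring genes can share a summit, so genes are not independent observations. The chaperone genes were also chosen with earlier results of these data known, and no test of the list was made.

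**Figure D1:**
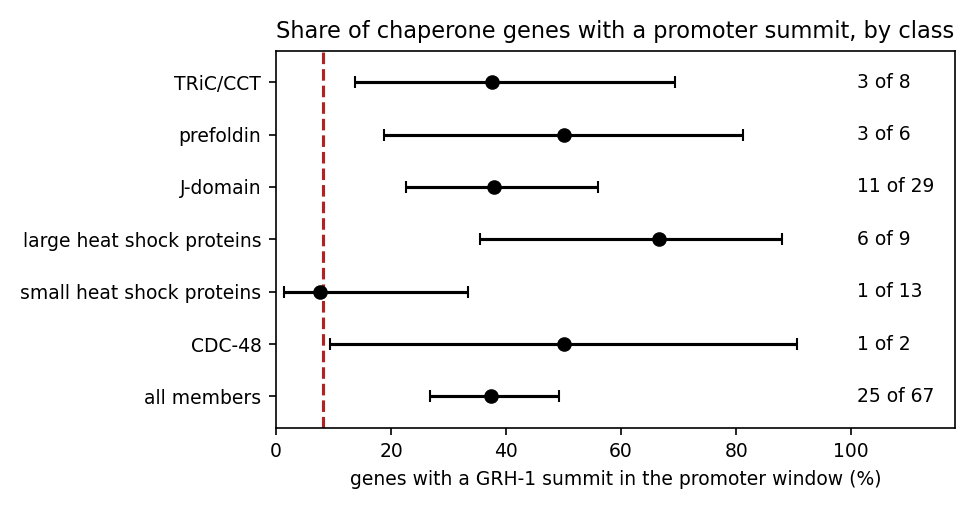
Share of genes with a GRH-1 summit in the promoter window, in percent, for 6 classes of chaperone genes and for all 67. Horizontal lines are 95% Wilson intervals over genes and the dashed line is the 8.16% of all protein-coding genes. The large heat shock proteins have the highest share at 66.7% and the small heat shock proteins the lowest at 7.69%.

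The peaks at chaperone promoters were also high ones. The deposited signal value is a score that belongs to its own peak list, and the sources used here do not state its scale. Its median over the 25 summits was 307.3, with a range from 81.79 to 1360.6, against a median of 142.1 over all 1337 promoter summits, a ratio of 2.16. Among the 247 highest-scoring of the 2470 pooled peaks were 9 of the 25 chaperone summits (36.0%), against 140 of the 1312 other promoter summits (10.7%). In terms of genes, 9 of 67 chaperone genes (13.4%) had a promoter summit that high, against 1.05% of all protein-coding genes.

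The count depended on how shared summits were treated. Of the 25 summits, 16 also lay in the promoter window of another gene. When each summit was given only to the gene with the nearest 5′ end, 13 chaperone genes were left (19.4%), against 6.15% of all genes, and the median signal was 161.4 against 142.8 for all promoter summits treated in the same way, a ratio of 1.13. The 12 genes lost were cct-1, cct-6, cct-8, dnj-11, dnj-14, dnj-19, dnj-22, hsp-110, hsp-6, hsp-60, hsp-90 and pfd-1. This left none of the TRiC/CCT genes and 2 of 9 large heat shock proteins, and among the 9 genes with the highest signals cct-8, hsp-60, hsp-90 and cct-1 were lost. ChIP-seq does not tell which of 2 genes on either side of a summit it acts on.

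The other choices of list and window moved the count less. The conservative list gave 24 chaperone genes against 7.96% of all genes, the list of replicate 1 gave 20 against 6.64%, and that of replicate 2 gave 19 against 5.53%. The higher-scoring 1235 of the pooled peaks gave 20 against 5.04%. A window of 500 bp upstream to 100 bp downstream gave 23 against 6.36%, and one of 2000 bp upstream to 200 bp downstream gave 25 against 10.7%. Counting any base of a peak gave 25 against 8.71%, and counting 1 summit for each merged region gave 25 against 8.14%.

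**Figure D2:**
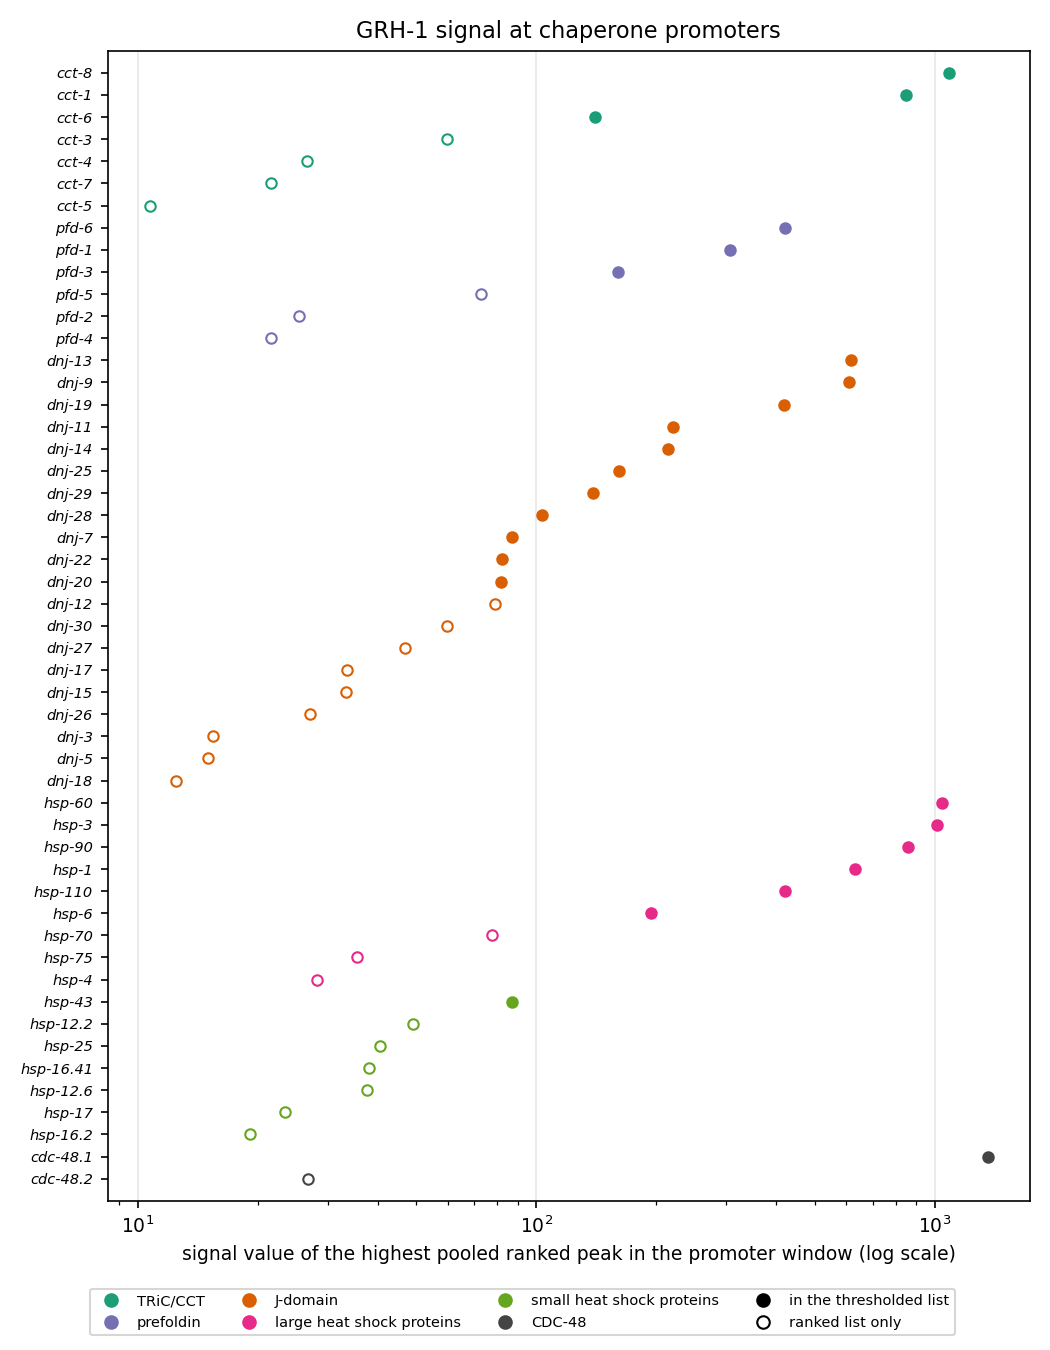
Deposited signal value of the highest pooled ranked peak in each promoter window, on a log axis, for the chaperone genes that had such a peak. Filled points are genes with a summit in the thresholded list and open points are genes with a peak in the ranked list only. The filled points run from 81.79 for dnj-20 to 1360.6 for cdc-48.1, and the highest open point is dnj-12 at 78.79.

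The highest summit belonged to cdc-48.1, 1 of 2 genes for the CDC-48 ATPase. Its pooled peak at chrII:10563440-10563712 had a signal value of 1360.6, rank 12 of all 2470 peaks, and its summit lay 172 bp upstream of the 5′ end with no other gene sharing it. In the ranked lists of the replicates the peak had a signal value of 794.3 (rank 13) in replicate 1 and 562.9 (rank 16) in replicate 2. The other gene, cdc-48.2, had no summit in the thresholded list. Its highest ranked peak was at 26.83, rank 50660 of 117774, with 32.46 in replicate 1 and no peak in replicate 2. In each replicate cdc-48.1 thus stood near the top of the list and cdc-48.2 had a low peak or none. The DNA around the cdc-48.1 summit, chrII:10563519-10563639 on the minus strand of the reference genome (build ce11, assembly WBcel235, from RefSeq), is shown because it carried the highest signal of all chaperone genes. It reaches 60 bp to either side of the summit and has no capitals, since these bases hold none of the 10 motifs searched. The wider window of 100 bp to either side, used for the motif counts further on, holds TTCNNGAA.
cdc-48.1: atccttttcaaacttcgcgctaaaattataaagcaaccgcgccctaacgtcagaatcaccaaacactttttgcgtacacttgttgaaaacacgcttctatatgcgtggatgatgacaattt

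Among the cytosolic heat shock proteins, hsp-90, hsp-1 and hsp-110 had summits and hsp-70 did not. HSP-90 is the only cytosolic HSP90 of the worm, HSP-1 the constitutive cytosolic HSP70 and HSP-110 its nucleotide exchange partner, while HSP-70 is made on heat shock. The hsp-90 peak at chrV:14685652-14685902 had a signal value of 856.3 (rank 58), with 530.4 in replicate 1 and 334.0 in replicate 2. The summit lay inside the hsp-90 gene, 862 bp downstream of the outermost of its 2 annotated 5′ ends and 380 bp upstream of the inner one, and 295 bp upstream of the opposite gene C47E8.4. The hsp-1 peak at chrIV:17278428-17278656 had 631.0 (rank 121), with 401.7 and 243.9 in replicates 1 and 2, and lay 397 bp upstream with no other gene sharing it. The hsp-110 peak at chrIII:8447063-8447249 had 422.6 (rank 250), with 248.6 and 172.3, and lay 250 bp upstream of hsp-110 and 194 bp upstream of rpn-3, a proteasome subunit gene. These 3 genes stood in the thresholded lists of both replicates.

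The hsp-70 promoter lay just under the threshold. Its highest ranked peak had a signal value of 77.48 and a −log10 irreproducible discovery rate (IDR) of 1.93, where the thresholded peaks have at least 2, an IDR of at most 0.01. The replicates gave 37.84 and 40.77. The conservative list held that summit, at rank 2127 of 2389 and 713 bp upstream. For comparison, the lowest chaperone summits inside the list were dnj-20 at 81.79 with a −log10 IDR of 2.29 and dnj-22 at 82.28 with 2.05.

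The DNA around these summits is shown because it holds heat shock elements, the sites of the heat shock factor HSF-1, built of alternating GAA and TTC units with 2 bases between them. Capitals mark GAANNTTC or TTCNNGAA in hsp-90 and hsp-1 and 3 alternating units in hsp-110. The windows reach 100 bp to either side of the summit on the strand of the gene, at chrV:14685680-14685880 (plus), chrIV:17278462-17278662 (plus) and chrIII:8447059-8447259 (minus) of the RefSeq genome, build ce11.
hsp-90: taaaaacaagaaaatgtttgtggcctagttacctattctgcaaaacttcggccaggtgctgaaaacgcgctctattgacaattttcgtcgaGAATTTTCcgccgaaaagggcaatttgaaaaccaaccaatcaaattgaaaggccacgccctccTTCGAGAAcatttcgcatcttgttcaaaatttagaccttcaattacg
hsp-1: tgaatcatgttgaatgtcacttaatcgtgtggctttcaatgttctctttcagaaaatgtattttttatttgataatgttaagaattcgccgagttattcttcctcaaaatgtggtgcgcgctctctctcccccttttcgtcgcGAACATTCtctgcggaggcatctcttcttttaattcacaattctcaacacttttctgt
hsp-110: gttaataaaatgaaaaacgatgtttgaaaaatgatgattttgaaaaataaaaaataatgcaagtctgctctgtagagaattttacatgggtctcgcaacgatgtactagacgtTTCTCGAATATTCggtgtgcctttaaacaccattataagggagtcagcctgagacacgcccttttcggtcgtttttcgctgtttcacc

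The mitochondrial chaperones hsp-60 and hsp-6 both had summits, and the mitochondrial HSP90 gene hsp-75 had none, with a highest ranked signal of 35.56. HSP-60 is the chaperonin of the mitochondrial matrix and HSP-6 its HSP70, and both genes are standard reporters of the mitochondrial unfolded protein response. The hsp-60 peak at chrIII:1619017-1619266 had a signal value of 1041.1 (rank 35), with 609.4 in replicate 1 and 437.5 in replicate 2. Its summit was the farthest upstream of all 25, at 598 bp, and lay 215 bp upstream of the opposite gene Y22D7AL.10, annotated as the mitochondrial 10 kDa heat shock protein, the lid of the HSP-60 ring. The hsp-6 peak at chrV:4827009-4827352 was lower, at 194.1 (rank 773), with 88.5 and 92.1 in the replicates. It lay 421 bp upstream of hsp-6 and 179 bp upstream of C37H5.5, a nucleolar complex gene. The hsp-60 window (chrIII:1619044-1619244, plus strand, ce11) carries 3 alternating heat shock units in capitals at its far upstream edge. The hsp-6 window (chrV:4827121-4827241, minus strand) carries in capitals the complement of GGGTCTC, a heptamer known from heat shock promoters of the worm.
hsp-60: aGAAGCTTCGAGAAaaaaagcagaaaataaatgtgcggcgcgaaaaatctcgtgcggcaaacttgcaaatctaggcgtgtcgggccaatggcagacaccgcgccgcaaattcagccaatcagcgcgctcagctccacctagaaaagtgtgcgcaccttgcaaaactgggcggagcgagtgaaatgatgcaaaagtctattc
hsp-6: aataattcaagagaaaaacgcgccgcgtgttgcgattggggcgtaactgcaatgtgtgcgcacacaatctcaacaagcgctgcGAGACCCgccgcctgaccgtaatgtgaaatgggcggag

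In the endoplasmic reticulum hsp-3 and hsp-4 encode paralogous HSP70 chaperones of the BiP type, and hsp-4 is the usual reporter of the unfolded protein response there. The hsp-3 peak at chrX:6092016-6092299 had a signal value of 1014.3 (rank 38), with 566.2 in replicate 1 and 450.5 in replicate 2, and its summit lay 48 bp upstream with no other gene sharing it. At hsp-4 the highest ranked peak had 28.26, rank 46661, with 12.74 and 23.17 in the replicates. In both replicates hsp-3 was far above hsp-4. The hsp-3 window (chrX:6092112-6092232, minus strand, ce11) shows in capitals the complement of AGACGCAG, an 8-base sequence found within 100 bp of 12.1% of all GRH-1 summits.
hsp-3: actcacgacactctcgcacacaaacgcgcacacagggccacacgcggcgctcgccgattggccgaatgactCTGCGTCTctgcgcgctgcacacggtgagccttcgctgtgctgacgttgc

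The TRiC/CCT ring is made of 8 different subunits that are needed together, and 3 of the 8 genes had summits. The cct-8 peak at chrIV:1094239-1094483 had a signal value of 1085.7 (rank 30), with 595.8 in replicate 1 and 484.7 in replicate 2. The cct-1 peak at chrII:8185096-8185338 had 848.9 (rank 60), with 461.5 and 385.3. The cct-6 peak on chromosome III had 140.7 (rank 1097), with 79.1 and 50.7. All 3 summits lay nearer to the opposite gene than to the cct gene. The partners were Y55F3AR.2, a gene for a thioredoxin-domain protein, for cct-8, the dishevelled gene mig-5 for cct-1, and alh-9 for cct-6, and their 5′ ends lay 182, 195 and 15 bp from the summits. The summits lay 439, 225 and 316 bp upstream of cct-8, cct-1 and cct-6.

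The other 5 subunit genes were far below. Their highest pooled ranked signals were 59.68 for cct-3, 26.61 for cct-4, 21.67 for cct-7 and 10.71 for cct-5, and cct-2 had no pooled ranked peak. Summits inside the gene body were found for cct-5 alone, the nearest of them 2724 bp from a 5′ end. The subunits of 1 ring thus ranged from rank 30 among the called peaks to no pooled peak at cct-2, where replicate 2 alone had a ranked peak, at 21.46. The cct-8 window (chrIV:1094259-1094459, minus strand, ce11) shows GAANNTTC in capitals, and the cct-6 window (chrIII:5855943-5856063, minus strand) the complement of GGGTCTC, the same heptamer as in the hsp-6 window.
cct-8: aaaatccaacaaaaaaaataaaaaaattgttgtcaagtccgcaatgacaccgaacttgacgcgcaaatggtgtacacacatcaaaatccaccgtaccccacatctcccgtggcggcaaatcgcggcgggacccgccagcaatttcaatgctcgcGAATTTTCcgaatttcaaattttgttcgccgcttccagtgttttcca
cct-6: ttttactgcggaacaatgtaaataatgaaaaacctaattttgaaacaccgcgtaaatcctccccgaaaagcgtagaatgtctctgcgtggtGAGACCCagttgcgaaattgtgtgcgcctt

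Prefoldin also has 6 different subunits, and 3 of their genes had summits. The pfd-6 summit had a signal value of 420.9 (rank 253), with 239.1 in replicate 1 and 185.7 in replicate 2, and the pfd-1 summit had 307.3 (rank 405), with 160.8 and 149.7. The pfd-3 summit had 160.9 (rank 941) and differed most between the replicates, with 115.6 (rank 718) in replicate 1 and 42.18 (rank 2168) in replicate 2. It passed the threshold in replicate 1 and did not in replicate 2. The summits lay 78, 314 and 15 bp upstream of pfd-6, pfd-1 and pfd-3. Among the rest pfd-5 came closest to the threshold, with a ranked signal of 72.62 and a −log10 IDR of 1.79.

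The J-domain genes were the largest class, and their summits were mostly lower than those of the large heat shock proteins. The median of the 11 summits was 161.4, against 743.7 for the 6 large heat shock protein genes. The highest were dnj-13 at 616.6 (rank 129), with 348.6 and 277.6 in replicates 1 and 2, and dnj-9 at 609.7 (rank 133), with 313.4 and 298.3. DNJ-13 is a cytosolic class B protein that works with HSP-1 and HSP-110 in dissolving aggregates. The dnj-19 summit, of a class A protein, had 418.6 (rank 257), with 203.4 and 206.0, and lay 13 bp upstream of nhr-47 and 383 bp upstream of dnj-19.

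Lower in the list were dnj-11 at 220.8, a ribosome-associated type known for its part in asymmetric neuroblast division, and dnj-14 at 214.1, the cysteine string protein of synaptic vesicles. Next came dnj-25 at 161.4, the auxilin that uncoats clathrin vesicles, and dnj-29 at 139.2, a SEC63 type of the endoplasmic reticulum translocon. In replicates 1 and 2 the values were 133.2 and 96.77 for dnj-11, 105.0 and 103.8 for dnj-14, and 64.37 and 77.28 for dnj-29. The dnj-28 summit had 103.5, the dnj-7 summit 87.12, the dnj-22 summit 82.28 and the dnj-20 summit 81.79. These last 4 were in neither replicate's thresholded list. Each replicate had a ranked peak there with a −log10 IDR below 2. The class A gene dnj-12 had no called summit. Its ranked signal of 78.79 was the highest among the uncalled chaperone genes, with 61.72 in replicate 1 and 28.38 in replicate 2 and a −log10 IDR of 0.898.

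The dnj-25 summit was the only one of the 25 within 100 bp of AACCGGTT, the palindrome of the Grainyhead family. Its window (chrV:20744511-20744711, minus strand, ce11) is shown with the palindrome in capitals, 73 bp from the summit. The peak had 73.58 in replicate 1 and 77.36 in replicate 2.
dnj-25: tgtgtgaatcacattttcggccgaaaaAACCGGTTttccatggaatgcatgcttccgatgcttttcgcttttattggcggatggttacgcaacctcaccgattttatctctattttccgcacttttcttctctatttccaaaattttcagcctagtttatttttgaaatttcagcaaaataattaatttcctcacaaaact

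Of the 13 small heat shock protein genes only hsp-43 had a summit. It lay inside the gene, 182 bp downstream of the nearest 5′ end, the only one of the 25 downstream of that end, and was low, at 86.80 (rank 1930), with 42.06 and 34.84 in the replicates and in neither of their thresholded lists. The hsp-16 genes, the most strongly heat-inducible of the class, had none. The divergent pair hsp-16.2 and hsp-16.41 reached pooled ranked signals of 19.10 and 38.10. The other 4, annotated as 2 copies of hsp-16.1 and 2 of hsp-16.48, had no peak in any ranked list. Runs of at least 50 bp that are identical between the copies cover 1122 of the 1201 bp of the hsp-16.1 windows and all 1201 bp of the hsp-16.48 windows, and how the authors treated reads that align to both copies is not stated, so the absence of a peak there is uncertain. All 6 hsp-16 windows hold 3 alternating heat shock units. One site of hsp-16.2 (chrV:1805007-1805035, minus strand, ce11) and one of hsp-16.41 (chrV:1805161-1805189, plus strand) are shown with the units in capitals, for comparison with the sites at hsp-60 and hsp-110.
hsp-16.2: agcagctcGAATGTTCTAGAAaaaggtgg
hsp-16.41: ctaggaccTTCTAGAACATTCtgtaaggc

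The chaperone genes without a summit had low ranked peaks or none. Of the 42, 26 (61.9%) had a pooled ranked peak in the promoter window, against 79.6% of all 18344 genes without a summit, and the median signal was 30.80 against 32.53. No peak of any ranked list was found at 10 of them. None of the 42 was in the thresholded list of either replicate. For 29 of the 42 the nearest called summit was over 5000 bp away, and hsp-12.3 alone had one within 1000 bp of its 5′ end but outside the window. Apart from the pooled ranked peaks, these counts were not made for the other genes without a summit. They describe the 42 genes and do not set them apart from other genes.

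The higher chaperone summits were found in each replicate alone. Of the 25 genes, 20 were in replicate 1's thresholded list and 19 in replicate 2's, with 19 in both and 5 in neither. The 5 were dnj-20, dnj-22, dnj-28, dnj-7 and hsp-43, all with pooled signals of 103.5 or less. In 24 of 25 genes both replicates had a ranked peak with its summit within 100 bp of the pooled one, and the largest distances were 80 bp in replicate 1 and 102 bp in replicate 2. The ranked lists hold 99502 and 85197 peaks, so a ranked peak is not by itself a call. At dnj-28 the replicates' −log10 IDR was 0.052 and 0.195, and at hsp-43 it was 0.739 and 0.064. The same counts over all promoter summits were not made. The pooled peaks were called on the same reads as the replicates' peaks, so the pooled list is not a further replicate. The number of reads is unknown, and no error can be given for a single signal value beyond the pair of replicate values.

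**Figure D3:**
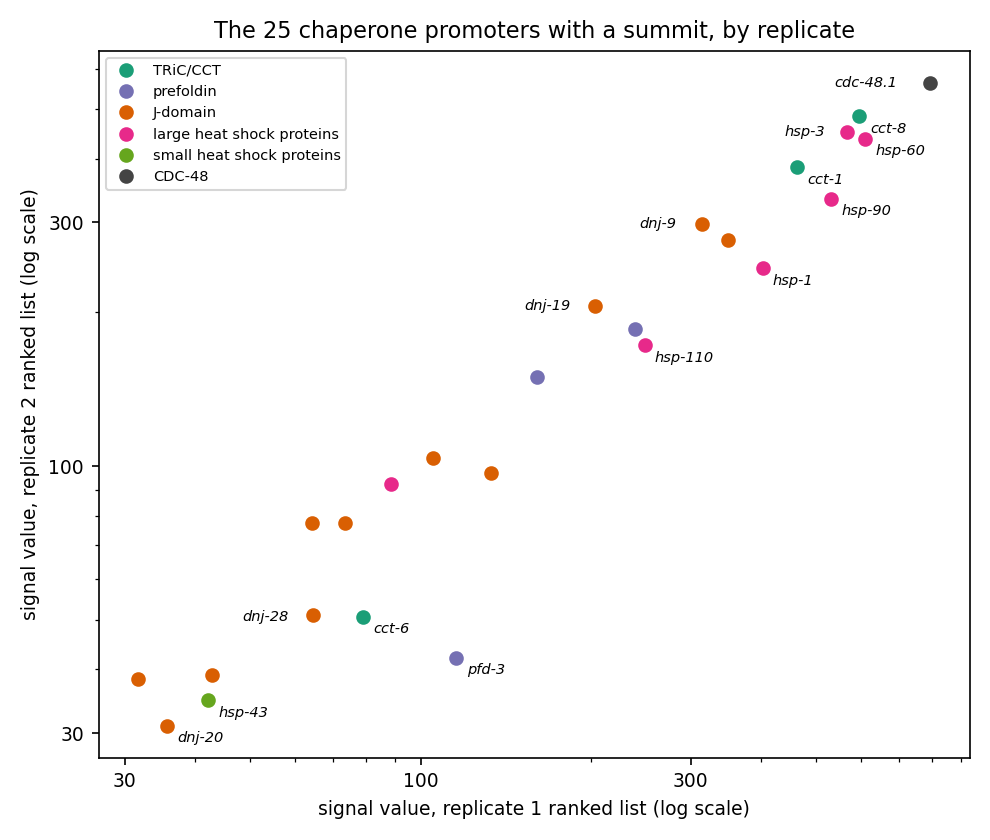
Deposited signal value in the ranked list of replicate 2 against that of replicate 1, both on log axes, for the 25 chaperone genes with a summit, coloured by class. Points lie along a band from dnj-20 at the lower left to cdc-48.1 at the upper right, and pfd-3, at 115.6 and 42.18, is the point lowest below the band.

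Most chaperone summits lay a short way upstream of the gene. The median position was 250 bp upstream of the nearest 5′ end of the chaperone gene, against 237.5 bp over the 1708 pairs of another gene and its promoter summit. Upstream of that nearest end were 24 of 25 (96.0%), against 93.4% of the others. Genes can have several 5′ ends, and 22 of 25 summits lay upstream of the outermost one. The other 3, of hsp-90, hsp-43 and dnj-20, lay inside the gene, that of dnj-20 4797 bp past its outermost 5′ end. The dnj-13 summit lay inside another gene, dhgd-1. Between 100 and 500 bp upstream were 20 of 25 (80.0%), against 55.8%. The median GC content of the 201 bp around the summit was 40.3%, against 42.3%.

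**Figure D4:**
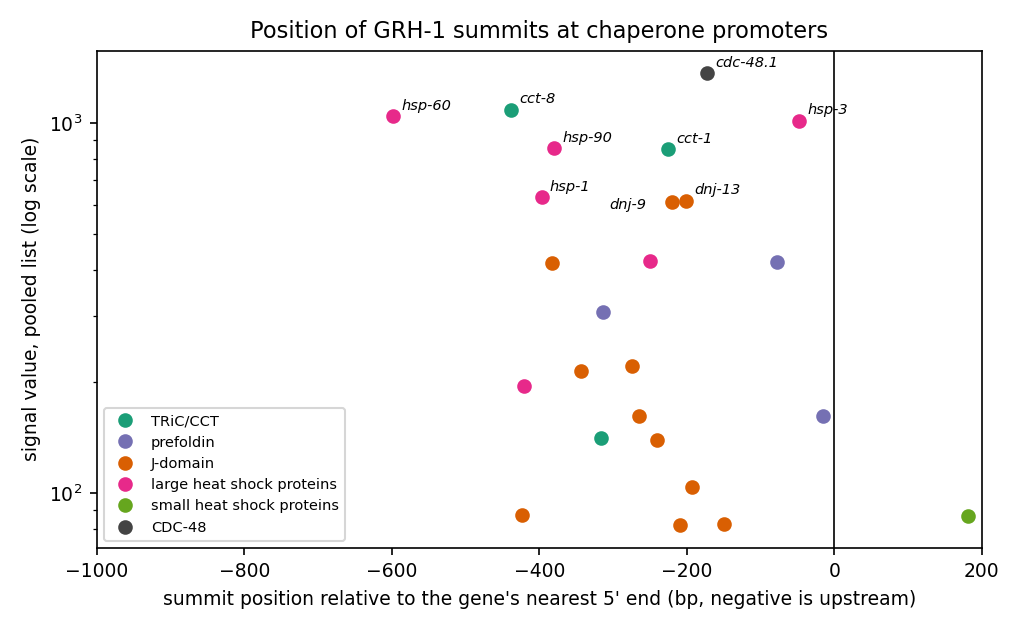
Signal value in the pooled list, on a log axis, against the position of the summit relative to the nearest 5′ end of the chaperone gene in bp, with negative values upstream. Most points lie between 100 and 500 bp upstream. The farthest upstream is hsp-60 at 598 bp, and hsp-43, at 182 bp downstream, is the only one past the nearest 5′ end.

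Shared promoters were frequent among these summits. Of the 25 summits 16 (64.0%) lay in the window of another gene too, against 28.3% of the other 1312 promoter summits. These shares differ in kind. The chaperone summits were reached through genes, and a shared summit can be reached through more than 1 gene, while each other summit was counted once. Part of the contrast can come from this. In 15 of the 16 a partner was on the opposite strand, and in 1, pfd-6 with rde-2, the partner was on the same strand. Of the 15 summits 14 lay between the divergent genes, and the hsp-90 summit lay inside hsp-90. The 14 include the dnj-13 summit, which lay inside another gene, dhgd-1. The nearest 5′ end was that of the chaperone gene for 13 summits and that of the partner for 12. The arrangement itself was frequent in chaperone genes. A divergent 5′ end lay within 1000 bp upstream in 16 of the 25 chaperone genes with a summit (64.0%) and in 15 of the 42 without one (35.7%). The share was 40.4% of the other 1604 genes with a summit and 18.7% of all protein-coding genes. The genes with a summit of their own were cdc-48.1, hsp-3, hsp-1, dnj-9, dnj-25, pfd-3, dnj-7, hsp-43 and dnj-20, with signals from 81.79 to 1360.6.

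Motifs were searched on both strands within 100 bp of the summit. The Grainyhead palindrome AACCGGTT was found at 1 of 25 chaperone summits (4%), against 2.90% of other promoter summits and 3.81% of all 2470. Its core ACCGGT, which every AACCGGTT contains, was found at the same 1 summit, against 5.34% and 7.09%. The variant AACTGGTT was found at 0 of 25, against 4.12% and 4.74%. The Wilson interval of 0 of 25 reaches 13.3%, so these shares were not distinguishable at this number of summits. GAGAGA was found at 5 of 25 (20%), against 32.7% of other promoter summits, AGACGCAG at 2 of 25 (8%) against 12.6%, and CACGTG at 0 of 25 against 9.68%. The core TGACGTG of sites for the unfolded protein response factor XBP-1 was found at hsp-3 and dnj-7, 2 of 25 (8%) against 3.43%.

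Partial heat shock elements were found more often. GAANNTTC was present at 10 of 25 chaperone summits (40.0%, 23.4 to 59.3%), against 10.4% of other promoter summits and 9.88% of all summits. TTCNNGAA was present at 7 of 25 (28.0%, 14.3 to 47.6%), against 9.30% and 9.15%. The patterns can overlap, since 3 alternating units contain both, and 13 of 25 summits (52.0%, 33.5 to 69.97%) held either, against 17.2% and 16.8%. These were pfd-3, cct-1, dnj-20, cdc-48.1, dnj-13, hsp-60, cct-6, hsp-110, cct-8, hsp-1, dnj-19, hsp-90 and dnj-25. Full runs of 3 alternating units lay near 2 of the 25 summits, hsp-60 and hsp-110, against 1.83% of other promoter summits. GGGTCTC was found at 4 of 25 (16%, 6.40 to 34.6%), namely cct-1, cct-6, hsp-110 and hsp-6, against 6.10%.

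These elements were also found in chaperone promoters without a summit. In windows of the same 201 bp centred 250 bp upstream of the 5′ end, either partial element was found in 20 of the 42 chaperone genes without a summit (47.6%) and in 14 of the 25 with one (56.0%), against 23.6% of the other genes without a summit. Over the whole promoter window, 3 alternating units were found in 7 of the 25 with a summit (28.0%) and in 11 of the 42 without (26.2%), against 9.18% of all protein-coding genes. By class these were 7 of 9 large heat shock proteins, 6 of 13 small heat shock proteins, 4 of 29 J-domain genes, 1 of 6 prefoldin genes and none of the 8 TRiC/CCT genes. The 6 small heat shock protein genes are the hsp-16 genes, all among the 42 without a summit. They lie in divergent pairs with overlapping windows, and 4 of them are near-identical copies. Their sites were thus counted more than once, and the share of the 42 without these repeats was not computed. Among the 9 chaperone summits in the 247 highest-scoring peaks, 7 held either partial element (77.8%), against 14.3% of the 140 other promoter summits that high. Among the 16 lower ones 6 did (37.5%), against 17.5%. Both counts are small, no intervals were computed for them, and the split at 247 peaks was added after the data were examined. Whether the higher and lower chaperone summits differ in this was not tested. A match describes the letters only, and whether the factor that reads them was bound was not measured.

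**Figure D5:**
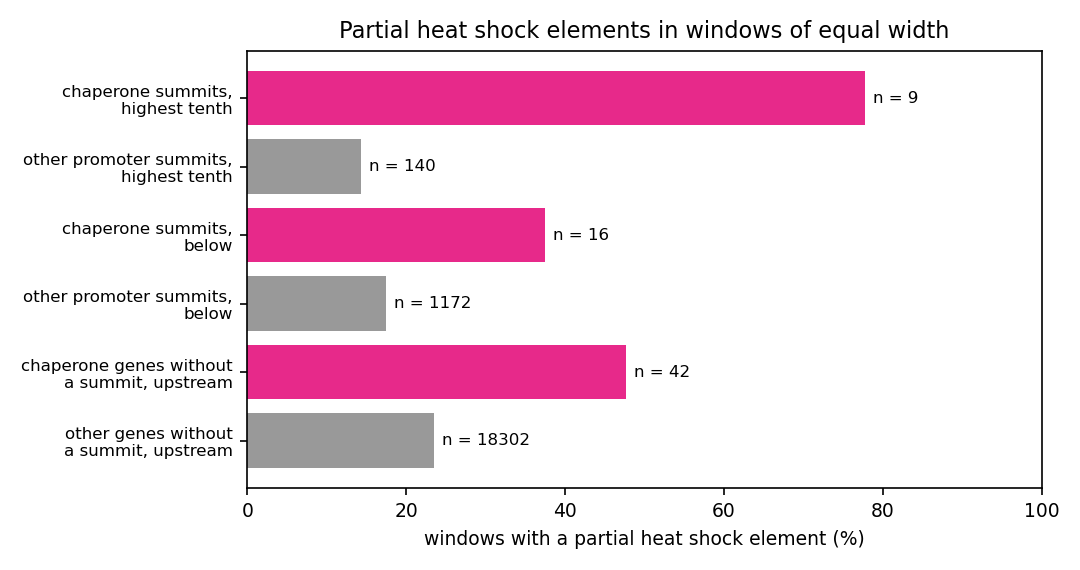
Share of 201 bp windows, in percent, that hold GAANNTTC or TTCNNGAA. The upper 4 bars are windows centred on summits, among the 247 highest-scoring peaks or below them, and the lower 2 are windows centred 250 bp upstream of genes without a summit. Chaperone genes are at 77.8%, 37.5% and 47.6% and the others at 14.3%, 17.5% and 23.6%. The chaperone bars rest on 9, 16 and 42 windows and have no intervals.

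Summits also lay at genes that work with these chaperones, in 5 lists whose intervals overlap. The lists too were chosen with earlier results of these data known, and none was tested. Of 14 genes for folding and the unfolded protein response in the endoplasmic reticulum, 8 had a promoter summit (57.1%, 32.6 to 78.6%), beside 8.16% of all genes. The highest were crt-1 at 766.2 (rank 78), the calcium-binding chaperone calreticulin, with 416.0 and 349.2 in replicates 1 and 2, and pdi-3 at 675.9 (rank 104), with 375.5 and 292.3. The disulfide isomerase genes pdi-2 and pdi-6 had 478.6 and 378.7, the endoplasmic HSP90 gene enpl-1 had 437.0 and the folding sensor uggt-1 had 244.1. Of the sensors of the unfolded protein response, atf-6 had 227.9 and pek-1 had 77.88, the latter in neither replicate's thresholded list, while ire-1 and the factor xbp-1 had none.

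Among the cytosolic partners 5 of 17 had a summit (29.4%, 13.3 to 53.1%), beside 8.16% of all genes. They were the nucleotide exchange factor bag-1 at 280.4, the HSP70 to HSP90 adaptor sti-1 at 233.5, the HSP90 activator ahsa-1 at 218.7, the BAG-domain gene unc-23 at 201.6 and the immunophilin fkb-6 at 106.1. The sti-1 peak had 175.4 in replicate 1 and 65.54 in replicate 2. The heat shock factor gene hsf-1 had no summit. The list had 18 names, of which daf-21 is an older name of hsp-90 and was not found under that name.

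Of 12 cofactor genes of CDC-48, 3 had a summit (25%, 8.89 to 53.2%), beside 8.16% of all genes. They were ubxn-2 at 268.4, ufd-3 at 210.9, which had a ranked peak of 135.5 in replicate 1 and none in replicate 2, and ubxn-1 at 79.46. Of 9 genes for protein quality control in mitochondria, 2 had a summit (22.2%, 6.32 to 54.7%), the proteases ppgn-1 at 94.92 and clpp-1 at 75.11. Of 10 tubulin and actin genes, whose products are the main clients of TRiC, 2 had a summit (20%, 5.67 to 51.0%), tba-2 at 514.6 and act-4 at 114.1. These 3 counts rest on few genes and changed with the list. The intervals of the mitochondrial genes and of the tubulin and actin genes include the 8.16% of all genes. The list of replicate 1 gave 2 of 12 CDC-48 cofactors, 1 of 9 mitochondrial genes and 1 of 10 tubulin and actin genes, without act-4, beside 6.64% of all genes. That of replicate 2 gave 1 of 12, 0 of 9 and 2 of 10, beside 5.53%. The window of 2000 bp gave 4 of 10 tubulin and actin genes, beside 10.7%.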

How the data were processed

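ChIP-seq peak lists of 2 biological replicates and of the pooled replicates were used, on build ce11 per the labels. For the aligner and the caller no name was given in the sources used here. The control was not analysed here. The deposited signal value of each peak is a score of its own list, whose scale is not stated, and was used to describe and rank peaks within lists. The deposited −log10 of the IDR is 2 or more for each thresholded peak. Another 8 columns of per-sample values in the header-less pooled tables were not used. The read number is unknown.

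Genes and 5′ ends came from Ensembl release 115, and sequences, product names and chromosome lengths from the RefSeq genome, whose lengths are those of the build. A gene was called when a pooled thresholded summit lay in the window of 1000 bp before to 200 bp after a transcript's 5′ end. Shares have 95% Wilson intervals, which cover counting error only. With 1 group no test between conditions was possible. The chaperone genes, the gene lists and the motifs were chosen with earlier results of these data known, so no list was tested. The rule for named genes took every called gene of the lists, 14 genes or gene groups whatever their values, and the 3 uncalled chaperone genes with the highest signal. Other uncalled genes named in the text, and genes found by product name, were picked after their values were seen. The alternatives tried were the conservative list, the lists of single replicates, the higher-scoring 1235 peaks, other windows, assignment and overlap rules, and motif windows of 50 and 200 bp. The 247 highest-scoring peaks, the windows upstream of genes and the 3-unit element were added after the data were examined. Summit assignment was tested on simulated data. Analyses ran in Python 3.11.15, with pandas 2.3.3 and numpy 2.4.6, and figures were drawn with matplotlib 3.10.9.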

Additional observations from a re-analysis of the deposited data

How the results depend on the processing

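Of 187 alternative values 165 stayed within the spread or limit set for them and 22 moved. For the shares of classes, gene lists and motifs the limit was the Wilson interval of the main value. In small groups this limit is wide, and for CDC-48, at 1 of 2 genes, it runs from 9.45 to 90.55%. The J-domain count of 7 of 29 in each replicate's list, in place of 11, was within it. The 165 are thus not a measure of how stable the shares are. Giving each summit to the nearest 5′ end changed most: 13 chaperone genes in place of 25, a TRiC/CCT share of 0%, a large heat shock protein share of 22.2% and a ratio of median signals of 1.13 in place of 2.16. The share of all genes was then 6.15% in place of 8.16%. The ratio of median signals was 1.79 in the conservative list, 1.83 in the higher-scoring 1235 peaks and 1.59 with the window of 2000 bp. It ran from 2.15 to 2.31 over the lists of single replicates, which gave 19 to 20 chaperone genes, beside 5.53% to 6.64% of all genes. The small heat shock protein share, resting on hsp-43, was 0% in the higher-scoring 1235 peaks, with the window of 500 bp and in both replicates' lists (0% to 0%). The share of all genes was 5.04% in the higher-scoring 1235 peaks and 6.36% with the window of 500 bp. Over the replicates' lists the shares ran from 0% to 4.76% for AACCGGTT and for ACCGGT, from 8.33% to 16.7% for the CDC-48 cofactors and from 0% to 11.1% for mitochondrial quality control, which was 0% in the higher-scoring 1235 peaks. Within 50 bp of summits AACCGGTT, ACCGGT and TGACGTG were at 0% and TTCNNGAA at 8%, and within 200 bp GAGAGA was at 44.0%; a window of another width holds another number of positions. No paired analysis was possible because there was 1 group. The number of reads is unknown, so summits near the threshold, such as those of hsp-70 and dnj-22, could not be weighed by depth, and the shares of classes of 2 to 13 genes have wide intervals.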

Other observations

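Genes with other names also encode chaperones. A search of RefSeq product names for chaperone and heat shock terms, made after the data were examined, gave 38 further genes. Of these, 8 (21.1%) had a GRH-1 summit at the promoter, beside 8.16% of all protein-coding genes. The 38 also hold genes that are no chaperones, such as hsf-1, hsb-1 and the signalling genes named txt, so this is not a share of chaperones. The highest was Y22D7AL.10, the mitochondrial 10 kDa heat shock protein, whose summit at 1041.1 is the one it shares with hsp-60. F44E5.4 and F44E5.5, both annotated as HSP70 proteins, shared a summit of 586.8 (rank 142 of 2470). The histone chaperone gene unc-85, of the asf-1 type, had 299.3, and bag-1, already given among the cytosolic partners, had 280.4. Lower summits lay at bmy-1, a chaperone of receptors with a beta-propeller, at 173.7, and at rme-8, a J-domain protein of endosomes, at 72.08. The eighth gene was txt-17, at 124.5.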
